A study of Mus musculus with 9 samples.

Results

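The comparison was of mouse pancreatic tumour cells that had shared a matrix with myofibroblast-like or with quiescent fibroblasts. The members were the 3 messenger RNA libraries of the myCAF group and the 3 of the qPSC group, 6 of the 9 libraries of the series, chosen by their labels. In all of them the sequenced cells were PancOVA, a mouse pancreatic tumour cell line, stained with the proliferation dye eFluor670 and sorted as dye-positive cells. They had been mixed with mPSC45, a mouse pancreatic stellate cell line marked by CD90.1, and kept together in matrigel for 48 h. Stellate cells of both groups had first been held for 48 h in matrigel under low serum, the qPSC state. For the myCAF group (TGFb-myCAF in the labels) they were then primed for 48 h with 2 ng/ml rhTGF-β1, the cytokine that turns fibroblasts into contractile, matrix-producing cells, while qPSC was the control condition. Stellate cells outnumbered tumour cells at seeding. Both cell types were single lines, and the labels do not tell if replicates came from separate cultures, so every p-value here reflects the spread between libraries, which may be technical.

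Several pathways recur in the results. Interferons bind surface receptors that activate STAT factors and IRF9, which bind the interferon-stimulated response element, a DNA motif, and switch on antiviral genes and antigen presentation. When sterols are scarce, SREBP2 moves to the nucleus and switches on the enzymes of cholesterol synthesis. HIF factors, stabilised when oxygen is low, bind the hypoxia response element and raise glycolysis and related genes, and ATF4, induced when amino acids are scarce, raises amino acid synthesis.

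Values were TPM, transcripts per 1000000 transcripts, which correct for gene length and library total. Depth, read from the steps of low values, was 38870600 to 45317254 reads. The test, limma on log2(TPM + 1), covered the 11620 genes that reached 1 TPM in 3 or more of the 6 libraries, and a gene was called at an adjusted p under 0.05. Within groups, the correlation between libraries was 0.997 to 0.9986 (Pearson's r across genes). On the first principal component of the 6 libraries (40.1% of the variance) the qPSC libraries lay at 10.6, 8.46 and 6.39 and the myCAF libraries at -17.3, 4.09 and -12.3. myCAF replicate 2 thus lay nearest to the controls, and it stood apart on the second component (27.2%), at 18.3, where the other 5 lay from -9.34 to 1.13. Results that rest on it are given with and without it.

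The sorted cells carried keratin and vimentin transcripts and almost no transcripts of the adhesion genes typical of epithelia. For Krt8, which encodes a simple-epithelial keratin, the values were 829.9, 815 and 813 TPM in the myCAF and 794, 773 and 783 TPM in the qPSC libraries. For Vim, which encodes the mesenchymal filament protein vimentin, they were 3059.7, 3180.0 and 3186 and 2981, 2756 and 2997 TPM. The groups of each did not overlap, but neither passed the test (limma, adjusted p = 0.401 and 0.275). Epcam, an epithelial adhesion gene, was listed at 0 in all 6 libraries, and Cdh1, which encodes E-cadherin, was listed at 0 in 5 and at 0.0176 TPM in myCAF replicate 3. Of 16 leukocyte markers 15 lay below 1 TPM in all 6 libraries, with Ptprc at 0 in 5 of them, as did 9 of 10 endothelial markers and 8 of 9 acinar and islet markers.

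Transcripts of genes known from fibroblasts were present in every library. Whether stellate cells or the tumour cells themselves carried them was not tested. Col1a1, for the more abundant chain of fibrillar collagen I, lay at 155, 68.2 and 158 TPM in the myCAF libraries and at 54.0, 57.9 and 69.9 TPM in the qPSC libraries, so that the groups overlapped through myCAF replicate 2. Col1a2, which encodes the other chain, stayed between 0.186 and 0.279 TPM in all 6, below the filter. Thy1, which encodes the CD90 antigen by which the stellate cells were stained, lay at 9.04, 3.28 and 8.23 TPM in the myCAF libraries and at 2.81, 4.04 and 5.40 TPM in the qPSC libraries. The mean log2(TPM + 1) of the 17 tested fibroblast markers, called the fibroblast index here, was 5.86, 4.95 and 5.61 in the myCAF libraries and 4.93, 5.10 and 5.23 in the qPSC libraries. The difference was 0.39 with an exact two-sided permutation p of 0.3, where 3 against 3 libraries allow no p below 0.1. myCAF replicates 1 and 3 lay above the controls, and myCAF replicate 2 lay within their range. In bulk samples fewer cells of a type and less RNA per cell cannot be told apart, and the part of fibroblast RNA in the results below was not tested.

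Across all genes the groups differed by small fold changes. Of the 11620 tested genes, 382 passed at an adjusted p under 0.05 (3.29%), 158 higher (1.36%) and 224 lower (1.93%) after myCAF co-culture. The median fold was 1.30 among the genes that rose and 1.32 among those that fell. Of the higher genes 30 changed at least 1.5-fold and 7 at least 2-fold, and of the lower genes 48 and 14. Groups did not overlap in any called gene, while of all tested genes 11.4% lay higher and 12.6% lower in every myCAF library than in every qPSC library. The median log2 fold change of all tested genes was 0.01.

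The number of calls depended on single libraries. Without myCAF replicate 2 it was 506 higher and 426 lower, of which 155 and 220 were called in the fit of 6. Without myCAF replicate 1 it was 27 and 38, and without myCAF replicate 3 it was 31 and 107. Leaving out qPSC replicates 1, 2 and 3 gave 7 and 15, 7 and 20, and 33 and 31. With all 9 libraries in 1 fit, which takes in the spread of the iCAF group, limma called 0 genes in either direction, while an unadjusted p under 0.05 was reached by 307 genes that were higher and 438 that were lower. Of the 78 tested genes that the naming rule gave and that are reported, 11 passed in every one of the 6 fits that left out a library: Ifi206, Tgtp1, Ifi209, Slfn2, Ifi207, Cfb, Lcn2, Pmvk, Acat2, Acss2 and Tuba1a.

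**Figure D1:**
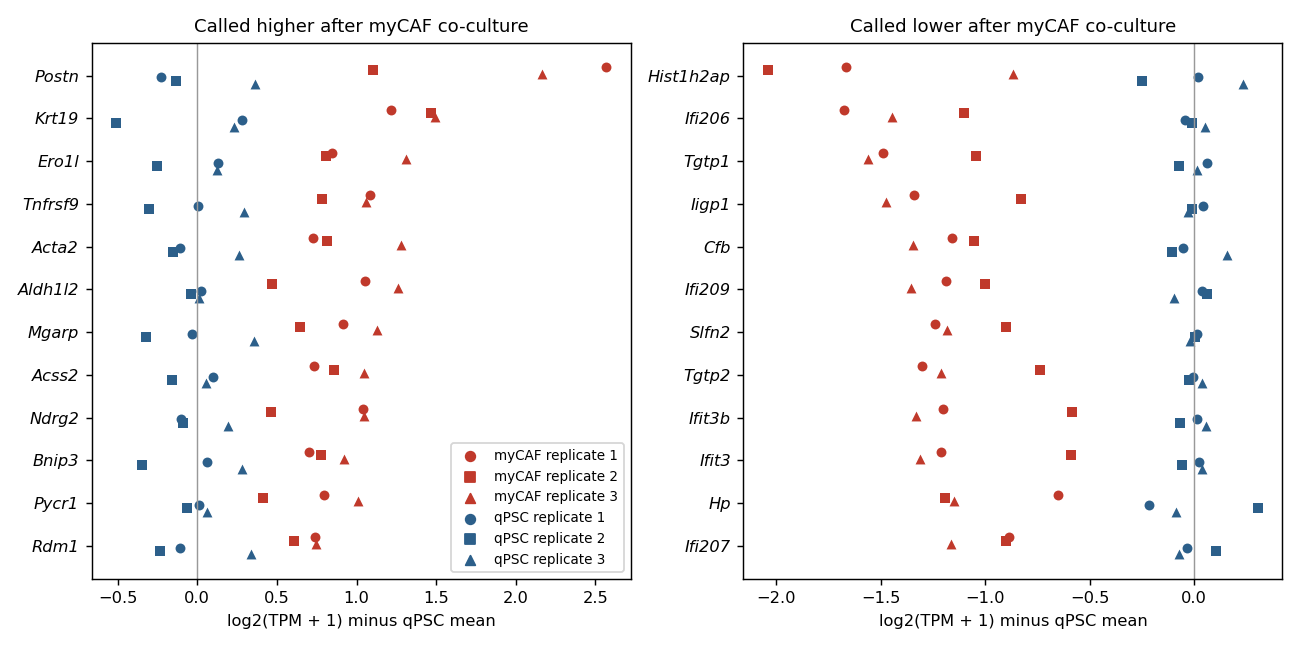
The 12 genes with the largest fold changes in each direction that met the naming rule, with log2(TPM + 1) of each library minus the qPSC mean on the horizontal axis (red, the 3 myCAF libraries; blue, the 3 qPSC libraries). The rule admits only genes whose groups do not overlap. The square of myCAF replicate 2 is the myCAF library nearest to the controls for Postn and Ifit3 but not for Krt19 or Hist1h2ap.

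Most interferon-response genes lay lower after co-culture with myCAF. Of 37 tested genes of antiviral effectors, sensors and transcription factors, 19 were called lower and 0 higher, where 1.93% of all tested genes were called lower. At an unadjusted p under 0.05 limma counted 34 lower and 1 higher, and limma-voom on the implied reads called 19 lower and 0 higher. In 30 of the 37 every myCAF library lay below every qPSC library (12.6% of all genes did). Members of the list had a median log2 fold change of -0.45. This list and those below were chosen with earlier results of these data known. The shares of all genes beside their counts are therefore no test of enrichment.

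Ifit1, an antiviral protein that binds foreign RNA, lay at 270.1, 361 and 238 TPM in the myCAF libraries and at 522, 538 and 515 TPM in the qPSC libraries. Ifit1 was 1.84-fold lower, a log2 fold change of -0.88 ± 0.13 (SE; limma, adjusted p = 0.0202). Next to it lie Ifit3 and Ifit3b, near-copies whose reads may be shared, at levels 2.05- and 2.06-fold below the controls (limma, adjusted p = 0.0229 and 0.0236). Ifit3 lay at 311, 479 and 291 TPM in the myCAF libraries and at 734, 694 and 741 TPM in the qPSC libraries, so that myCAF replicate 2 lay between the other myCAF libraries and the controls. The kinase gene Cmpk2, which supplies nucleotides in mitochondria, lay at 104, 136 and 104 TPM in the myCAF libraries and at 183, 176 and 187 TPM in the qPSC libraries, 1.59-fold lower (limma, adjusted p = 0.0202). Rsad2, which encodes the antiviral enzyme viperin, was 1.63-fold lower, and Mx1, a GTPase that blocks viral particles, was 1.77-fold lower (limma, adjusted p = 0.0297 for each).

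Of the transcription factors of the pathway, Irf7 and Stat2 fell while others did not pass. Irf7, which amplifies the interferon response, lay at 197, 270.5 and 219.9 TPM in the myCAF libraries and at 375, 353 and 369 TPM in the qPSC libraries, 1.61-fold lower (limma, adjusted p = 0.0206). Stat2 was 1.25-fold lower, with all 3 myCAF libraries between 42.0 and 46.7 TPM and all 3 qPSC libraries from 54.9 to 57.8 TPM (limma, adjusted p = 0.0256). Irf9, which acts with it, did not pass, at 50.1, 53.5 and 50.9 against 56.0, 56.0 and 58.3 TPM (limma, adjusted p = 0.154). Among RNA sensors Ifih1 was 1.37-fold lower (limma, adjusted p = 0.0425), while Ddx58, at 78.6, 101 and 83.5 against 109.8, 111 and 107 TPM, did not pass (adjusted p = 0.0847). Ifi27 was the 1 member with a positive fold change and did not pass in the fit of 6 libraries (limma, adjusted p = 0.211), at 159, 87.9 and 121 against 76.2, 80.7 and 95.7 TPM; myCAF replicate 2 lay within the qPSC range, and without that library Ifi27 was called higher.

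The number of calls in the list rested on the libraries used. Without myCAF replicates 1, 2 and 3 in turn, 1, 34 and 1 members were called lower, and without qPSC replicates 1, 2 and 3, 0, 0 and 0, with 28 to 35 at an unadjusted p under 0.05 in each of these 6 limma fits. Over these 6 fits that median ran from -0.57 to -0.36. Summed over the 37 genes the level was 5973, 7422 and 5580.4 TPM in the myCAF libraries and 8562, 8356 and 8736 TPM in the qPSC libraries. The library nearest to the controls was myCAF replicate 2. Its fibroblast index lay in the qPSC range, and a link between that index and the interferon level was not tested. By mean log2(TPM + 1) replicate 2 was also nearest in the lists of HIF targets and glycolysis. By summed TPM replicate 1 was nearest in both, at 3208 and 18520 TPM against 3229 and 19178 TPM in replicate 2. In the acute-phase list replicate 2 lay farthest from the controls, at a mean log2(TPM + 1) of 4.52 against 5.14 and 4.73 in replicates 1 and 3.

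A second interferon-induced group, the immunity-related GTPases and guanylate-binding proteins that attack the vacuoles of pathogens, the nucleic acid-binding Ifi200 proteins and the Schlafen proteins, showed larger folds. Of 28 tested genes 15 were called lower, where 1.93% of all tested genes were, and 0 higher. Counts were 26 and 0 at an unadjusted p under 0.05 with limma, and 16 and 0 were called by limma-voom. The median log2 fold change was -0.59. All 28 had a negative fold change. Ifi206 (ENSMUSG00000037849.8; GENCODE M21, GRCm38 chr1:173468485-173491041, minus strand) lay at 8.85, 13.7 and 10.5 TPM in the myCAF libraries and at 29.6, 30.3 and 31.7 TPM in the qPSC libraries. Ifi206 was 2.66-fold lower, a log2 fold change of -1.41 ± 0.13 (SE; limma, adjusted p = 0.00503). Its neighbours Ifi207, Ifi209 and Ifi208 fell 1.98-, 2.27- and 2.18-fold (limma, adjusted p = 0.00432, 0.00503 and 0.0118). In the same family Ifi211, at 299, 389 and 289.6 against 396, 375 and 407 TPM, and Aim2, the DNA sensor that triggers the inflammasome, at 19.9, 19.1 and 18.9 against 20.6, 21.7 and 18.8 TPM, did not pass (limma, adjusted p = 0.204 and 0.622).

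Slfn2, a Schlafen gene that keeps T cells quiescent in mice, lay at 22.4, 28.5 and 23.3 TPM in the myCAF libraries and at 54.7, 54.3 and 53.5 TPM in the qPSC libraries. Slfn2 was 2.16-fold lower, a log2 fold change of -1.11 ± 0.08 (SE; limma, adjusted p = 0.0041). The groups lay far apart, and myCAF replicate 2 was the highest of the myCAF libraries. Slfn9, at 75.6, 76.8 and 69.8 against 84.8, 91.0 and 82.6 TPM, did not pass (limma, adjusted p = 0.0786), and Slfn1, Slfn4 and Slfn5 lay below 1 TPM in all 6 libraries.

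Among the GTPases Tgtp1, an immunity-related GTPase of T cells and other cells, lay at 10.9, 15.2 and 10.3 TPM in the myCAF libraries and at 33.9, 30.7 and 32.7 TPM in the qPSC libraries. Tgtp1 was 2.57-fold lower, a log2 fold change of -1.36 ± 0.13 (SE; limma, adjusted p = 0.00503). Its near-copy Tgtp2, with which reads may be shared, was 2.12-fold lower, and Iigp1, which acts at the vacuole of Toxoplasma, was 2.32-fold lower (limma, adjusted p = 0.014 for each). Of the guanylate-binding proteins Gbp6, Gbp9, Gbp3 and Gbp7 were called, 1.79-, 1.67-, 1.61- and 1.55-fold lower (limma, adjusted p from 0.0202 to 0.0401). Gbp2 was not, at 72.5, 107 and 68.4 against 96.6, 86.3 and 102 TPM (limma, adjusted p = 0.507), with myCAF replicate 2 above every control. The members called lower numbered 8, 26 and 9 when myCAF replicates 1, 2 and 3 were left out in turn and 5, 5 and 7 when qPSC replicates 1, 2 and 3 were, with 23 to 27 at an unadjusted p under 0.05 in each of these 6 limma fits.

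Promoter stretches of these genes, and of B2m of the antigen presentation list, are shown because they carry the motif that the interferon-activated STAT and IRF factors bind. The motif was searched as 2 copies of GAAA separated by any 2 bases, on both strands, from 250 bases before to 50 bases after each RefSeq gene start (GRCm38.p6). It was found in 3.75% of the 8971 tested genes that have a window, in 17.3% of the 162 such genes called lower and in 2 of the 116 called higher. Of the called GTPase, Ifi200 and Schlafen genes 10 of 12 with a window held it, and of the called interferon-response genes 7 of 11. Over all tested members of these lists it was in 19 of 23 and 13 of 25. A match describes letters and does not show binding. The windows below run 5′ to 3′ along the gene, with the match in capitals, read along the gene or as its reverse complement.
Ifi206, chr1:173491339-173491368, minus strand: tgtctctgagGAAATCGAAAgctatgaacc
Ifi207, chr1:173741831-173741860, minus strand: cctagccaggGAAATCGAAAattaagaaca
Ifi208, chr1:173673597-173673626, plus strand: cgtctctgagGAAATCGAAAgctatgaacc
Ifi213, chr1:173599326-173599355, minus strand: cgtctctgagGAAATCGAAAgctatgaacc
Tgtp1, chr11:48992304-48992333, minus strand: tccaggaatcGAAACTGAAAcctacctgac
Tgtp2, chr11:49064263-49064292, minus strand: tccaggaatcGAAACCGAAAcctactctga
Irgm2, chr11:58214903-58214932, plus strand: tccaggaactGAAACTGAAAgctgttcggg
Ifit3, chr19:34583363-34583392, plus strand: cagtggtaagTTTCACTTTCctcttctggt
Ifit3b, chr19:34607759-34607788, plus strand: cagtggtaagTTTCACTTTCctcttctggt
Stat2, chr10:128270266-128270295, plus strand: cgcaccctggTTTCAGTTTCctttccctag
B2m, chr2:122147538-122147567, plus strand: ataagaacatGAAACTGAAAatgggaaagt

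The windows of Ifi206, Ifi208 and Ifi213 share the match GAAATCGAAA and most flanking bases, and those of Ifit3 and Ifit3b are identical over their length. Of the called interferon-response genes with a match, Ifit1 had the smallest p, and its promoter holds 2 matches, in capitals in the RefSeq sequence of chr19:34640639-34640938 (GRCm38.p6, plus strand).
Ifit1 promoter: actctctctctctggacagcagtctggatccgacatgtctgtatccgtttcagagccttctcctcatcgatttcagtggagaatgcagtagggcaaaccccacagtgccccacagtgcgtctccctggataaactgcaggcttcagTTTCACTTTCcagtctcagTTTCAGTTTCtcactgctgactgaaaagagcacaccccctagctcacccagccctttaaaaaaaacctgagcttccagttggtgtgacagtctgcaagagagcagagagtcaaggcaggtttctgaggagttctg

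Part of the genes of antigen presentation by MHC class I fell too, by smaller folds. Of 24 tested genes 10 were called lower, where 1.93% of all tested genes were, and 0 higher. With limma 16 were lower and 1 higher at an unadjusted p under 0.05, and limma-voom called 10 and 0. The median log2 fold change was -0.30. H2-K1, which encodes a classical class I heavy chain, lay at 1119, 1160.2 and 1069 TPM in the myCAF libraries and at 1488, 1465 and 1593 TPM in the qPSC libraries. H2-K1 was 1.36-fold lower, a log2 fold change of -0.44 ± 0.05 (SE; limma, adjusted p = 0.0118). H2-D1, the other classical heavy chain, was 1.34-fold lower, at 1705, 1791 and 1717 against 2300.1, 2223 and 2487 TPM (limma, adjusted p = 0.014). Reads of class I genes may be shared, since their sequences are alike, so the values of single H2 genes are uncertain.

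B2m, the invariant light chain that every class I molecule needs, lay at 5079, 5356 and 5112 TPM in the myCAF libraries and at 6129, 6063 and 6334 TPM in the qPSC libraries, 1.19-fold lower (limma, adjusted p = 0.0297). Tap1, a subunit of the pump that carries peptides into the endoplasmic reticulum, was 1.40-fold lower, at 55.3, 63.5 and 56.1 against 82.7, 79.2 and 84.3 TPM (limma, adjusted p = 0.014), while Tap2, the other subunit, did not pass, at 26.8, 29.7 and 23.4 against 31.3, 31.5 and 32.5 TPM (adjusted p = 0.151). Psmb8, a subunit of the immunoproteasome, was 1.47-fold lower, and Nlrc5, the transactivator of class I genes, was 1.28-fold lower (limma, adjusted p = 0.0229 and 0.0363). Cd274, which encodes the checkpoint ligand PD-L1, did not pass, at 15.4, 15.6 and 11.0 against 20.4, 18.2 and 17.8 TPM (limma, adjusted p = 0.122). Fits that left out myCAF replicates 1, 2 and 3 called 4, 17 and 5 members lower, and those that left out qPSC replicates 1, 2 and 3 called 0, 2 and 3, with 13 to 20 at an unadjusted p under 0.05 in each of these 6 limma fits.

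Acute-phase and complement genes included both called and widely scattered members. Of 18 tested genes 5 were called lower, where 1.93% of all tested genes were, and 0 higher. Before adjustment, at p under 0.05 with limma, these were 10 and 0, and limma-voom called 6 and 0. The median log2 fold change was -0.24. Cfb, complement factor B, lay at 12.8, 13.9 and 11.1 TPM in the myCAF libraries and at 28.8, 27.7 and 33.5 TPM in the qPSC libraries. Cfb was 2.28-fold lower, a log2 fold change of -1.19 ± 0.10 (SE; limma, adjusted p = 0.0041). Lcn2, an iron-carrier-binding protein of epithelia and neutrophils, lay at 56.5, 56.1 and 49.1 TPM in the myCAF libraries and at 96.0, 102 and 93.4 TPM in the qPSC libraries, 1.79-fold lower (limma, adjusted p = 0.0041). For both, myCAF replicate 2 lay with the other myCAF libraries. Hp, which encodes haptoglobin, was 2.00-fold lower (limma, adjusted p = 0.0297).

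Cebpd and Cebpb, C/EBP factors that drive acute-phase transcription, fell 1.5- and 1.40-fold (limma, adjusted p = 0.0153 and 0.0229). Cebpd lay at 42.5, 34.6 and 36.8 TPM in the myCAF libraries and at 55.4, 57.1 and 59.5 TPM in the qPSC libraries, and the groups did not overlap. Saa3, an acute-phase apolipoprotein that fibroblasts also make, scattered widely, at 140.3, 37.1 and 52.2 against 64.1, 76.5 and 104 TPM, and did not pass (limma, adjusted p = 0.788). Leaving out myCAF replicates 1, 2 and 3 in turn gave 4, 6 and 3 members called lower, and leaving out qPSC replicates 1, 2 and 3 gave 2, 2 and 3, with 7 to 14 at an unadjusted p under 0.05 in each of these 6 limma fits.

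Some secreted factors and NF-κB targets passed. Of 24 tested chemokines and cytokines 2 were called (8.33%), both lower, where 3.29% of all tested genes were called in either direction. Before adjustment, at p under 0.05, 1 member was higher and 8 were lower. Ccl7, which attracts monocytes, lay at 278, 343 and 219.7 TPM in the myCAF libraries and at 492, 543 and 426 TPM in the qPSC libraries, 1.76-fold lower, and Cxcl5, which attracts neutrophils, was 1.45-fold lower, at 441, 516 and 395 against 657, 712 and 586 TPM (limma, adjusted p = 0.0341 and 0.0363). Without myCAF replicate 2, 2 members were called higher (Cxcl12 and Il33) and 6 lower, with 3 and 10 at an unadjusted p under 0.05. The lower calls numbered 0 and 1 without myCAF replicates 1 and 3 and 0, 0 and 0 without qPSC replicates 1, 2 and 3, none was higher in these fits, and 5 to 11 were lower at an unadjusted p under 0.05. The calls of Ccl7 and Cxcl5 were both lost when any library other than myCAF replicate 2 was left out, with Ccl7 at an adjusted p of up to 0.552 over all alternatives. Cxcl10, an interferon-induced chemokine for T cells, lay lower in every myCAF library, at 165, 173 and 107 against 223, 217 and 251 TPM, and did not pass (limma, adjusted p = 0.0724). Il33, an alarmin, lay at 178, 85.8 and 151 against 74.1, 77.8 and 112 TPM and did not pass in the fit of 6 (limma, adjusted p = 0.276), with its lowest myCAF value in replicate 2.

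Of 23 tested NF-κB genes Tnfrsf9 was called higher, and Sod2 and Nfkbiz were called lower (13.0%, where 3.29% of all tested genes were called). Tnfrsf9, which encodes the costimulatory receptor 4-1BB known from T cells, lay at 101, 81.9 and 99.5 TPM in the myCAF libraries and at 47.4, 38.1 and 58.0 TPM in the qPSC libraries. Tnfrsf9 was 1.97-fold higher, a log2 fold change of 0.98 ± 0.14 (SE; limma, adjusted p = 0.0202), and the call held without myCAF replicate 2 and without qPSC replicate 3 but in none of the other 4 fits that left out a library. Of the lower calls, 2 in the fit of 6, there were 3 without myCAF replicate 2, 1 without qPSC replicate 3 and 0 in the other 4. Sod2, a mitochondrial superoxide dismutase, and Nfkbiz, a nuclear cofactor of NF-κB, were each 1.2-fold lower (limma, adjusted p = 0.0297 and 0.0481). The subunit Rela lay at 169.6, 167 and 174 against 172, 166 and 177 TPM, and the feedback inhibitor Nfkbia at 321, 267 and 303 against 289, 298 and 305 TPM, and neither passed (limma, adjusted p = 0.919 and 0.977).

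**Figure D2:**
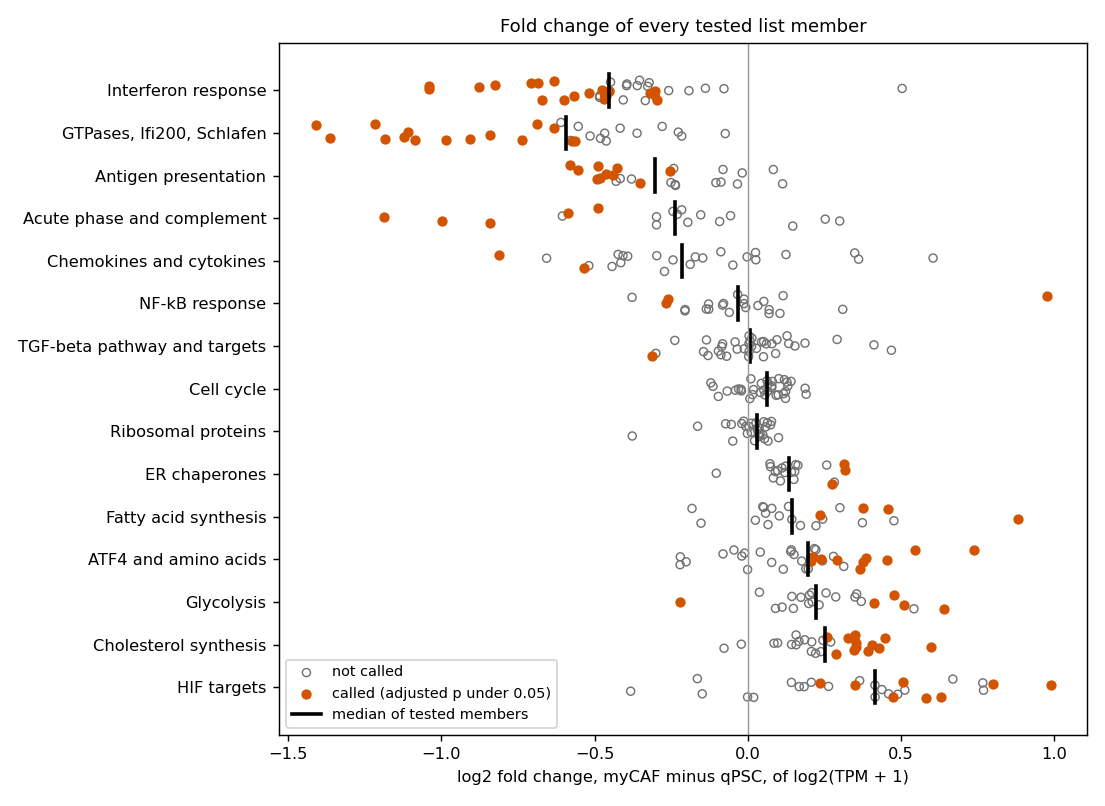
Each circle is a tested gene of a list, with its log2 fold change (myCAF minus qPSC, of log2(TPM + 1)) on the horizontal axis; filled circles passed the test and black bars are medians. The medians of the 3 interferon-induced lists lie at -0.45, -0.59 and -0.30, those of cholesterol synthesis and HIF targets at 0.25 and 0.42, and that of TGF-β targets at 0.01.

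Many enzyme genes of cholesterol synthesis rose after myCAF co-culture, from the first to the later steps. Of 28 tested genes 13 were called higher, where 1.36% of all tested genes were, and 0 lower (23 and 0 at an unadjusted p under 0.05 with limma, 16 and 0 called by limma-voom). The median log2 fold change was 0.25, and in 23 of 28 genes every myCAF library lay above every qPSC library (11.4% of all genes did). The changes were small and even between libraries: the summed level was 7012, 7216 and 7340.1 TPM in the myCAF libraries and 6180.4, 6064 and 5615 TPM in the qPSC libraries. Here myCAF replicate 2 lay between the other myCAF libraries.

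The largest rise of the list was in the mevalonate steps. Pmvk, which encodes phosphomevalonate kinase, lay at 141, 129 and 138 TPM in the myCAF libraries and at 92.7, 88.2 and 87.8 TPM in the qPSC libraries. Pmvk was 1.51-fold higher, a log2 fold change of 0.60 ± 0.05 (SE; limma, adjusted p = 0.0041). Acat2, which joins acetyl-CoA units at the start of the pathway, lay at 479, 501 and 489.6 TPM in the myCAF libraries and at 373, 366 and 337 TPM in the qPSC libraries, 1.37-fold higher (limma, adjusted p = 0.00969). Mvd, which makes isopentenyl diphosphate, was 1.34-fold higher, and Fdps, which makes farnesyl diphosphate, 1.27-fold higher (limma, adjusted p = 0.0118 and 0.0153).

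Among the later, sterol steps Nsdhl, Lss, Sqle, Cyp51 and Msmo1 rose 1.28-, 1.31-, 1.25-, 1.27- and 1.22-fold (limma, adjusted p from 0.0153 to 0.0331). Dhcr7, which acts near the end of the pathway, did not pass, at 40.8, 51.4 and 47.2 against 41.5, 39.1 and 38.1 TPM (limma, adjusted p = 0.208). Nor did Srebf2, which encodes SREBP2, at 266, 260.4 and 281 against 252, 235 and 233 TPM (limma, adjusted p = 0.104). Without myCAF replicates 1, 2 and 3 in turn, 5, 15 and 5 members were called higher, and without qPSC replicates 1, 2 and 3, 3, 2 and 4, with 21 to 23 at an unadjusted p under 0.05 in each of these 6 limma fits.

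**Figure D3:**
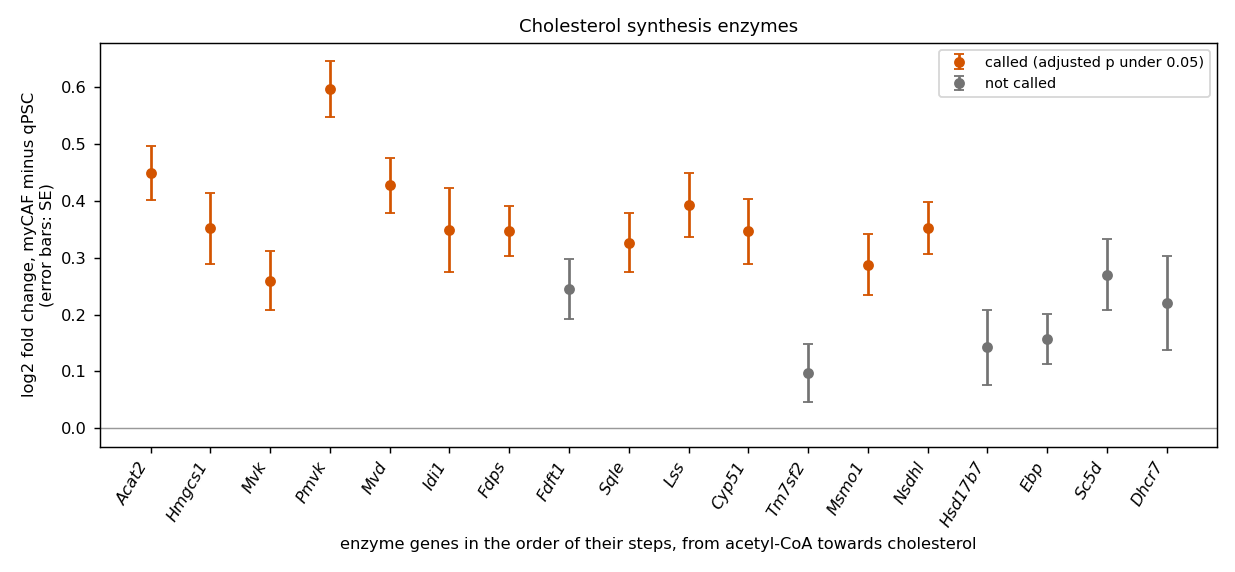
Log2 fold changes (myCAF minus qPSC, points) with standard errors (bars) of 18 enzyme genes in the order of their steps from acetyl-CoA towards cholesterol. All 18 lie above 0, with Pmvk highest at 0.60, and the last 4 genes shown include no called gene.

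The sterol response element was searched as TCACNCCAC on both strands of the same promoter windows and was found in 1.33% of tested genes. Of the 10 called cholesterol genes with a window 1 held these letters, Hmgcs1, which makes HMG-CoA. Hmgcs1 lay at 633, 595 and 646 TPM in the myCAF libraries and at 516, 506 and 447 TPM in the qPSC libraries, 1.28-fold higher (limma, adjusted p = 0.0297). Its promoter is printed from RefSeq, chr13:119690101-119690400 (GRCm38.p6, plus strand), with the match in capitals.
Hmgcs1 promoter: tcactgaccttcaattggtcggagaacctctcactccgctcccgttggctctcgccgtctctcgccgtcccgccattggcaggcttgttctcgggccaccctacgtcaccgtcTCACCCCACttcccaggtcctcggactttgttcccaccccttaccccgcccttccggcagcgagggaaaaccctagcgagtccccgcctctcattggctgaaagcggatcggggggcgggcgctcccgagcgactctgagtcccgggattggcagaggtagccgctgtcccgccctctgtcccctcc

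Some genes of fatty acid synthesis rose. Of 21 tested genes 4 were called higher, where 1.36% of all tested genes were, and 0 lower. Counts were 12 and 2 at an unadjusted p under 0.05 with limma, and 5 and 0 were called by limma-voom. The median log2 fold change was 0.14. Acss2, which makes acetyl-CoA from acetate, lay at 20.3, 22.2 and 25.5 TPM in the myCAF libraries and at 12.7, 10.5 and 12.3 TPM in the qPSC libraries. Acss2 was 1.84-fold higher, a log2 fold change of 0.88 ± 0.10 (SE; limma, adjusted p = 0.0115). Scd2, a desaturase, rose 1.37-fold, Acly, which makes acetyl-CoA from citrate, 1.18-fold and Elovl6, an elongase, 1.30-fold (limma, adjusted p = 0.0331, 0.0341 and 0.0489). Fasn and Acaca, the central enzymes of the pathway, overlapped between the groups, at 235, 255 and 269 against 249, 251 and 234 TPM and at 35.2, 37.4 and 41.5 against 37.9, 37.5 and 33.9 TPM (limma, adjusted p = 0.728 and 0.749). The members called higher numbered 1, 7 and 1 when myCAF replicates 1, 2 and 3 were left out in turn and 1, 1 and 1 when qPSC replicates 1, 2 and 3 were, with 10 to 12 at an unadjusted p under 0.05 in each of these 6 limma fits.

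Some genes known as HIF targets rose as well. Of 28 tested genes outside glycolysis 8 were called higher and 0 lower (19 and 1 at an unadjusted p under 0.05 with limma, 8 and 0 called by limma-voom), with a median log2 fold change of 0.42. Ero1l, an oxidase of the endoplasmic reticulum, lay at 260.1, 253 and 359 TPM in the myCAF libraries and at 158, 121 and 157 TPM in the qPSC libraries. Ero1l was 1.98-fold higher, a log2 fold change of 0.99 ± 0.15 (SE; limma, adjusted p = 0.0209). Bnip3 and its relative Bnip3l, receptors for the removal of mitochondria, rose 1.74- and 1.39-fold (limma, adjusted p = 0.0297 and 0.0209). Bnip3 lay at 396, 418 and 463 TPM in the myCAF libraries and at 254, 191 and 296 TPM in the qPSC libraries, with qPSC replicate 2 lowest of all.

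Selenbp1, a methanethiol oxidase listed here with the HIF targets, lay at 48.1, 56.5 and 52.4 TPM in the myCAF libraries and at 33.4, 30.7 and 36.2 TPM in the qPSC libraries, 1.55-fold higher (limma, adjusted p = 0.014). Higd1a, a mitochondrial protein, Ndrg1, a stress-response gene, Mxi1, which represses MYC targets, and Plod2, a collagen lysyl hydroxylase, rose 1.42-, 1.5-, 1.27- and 1.18-fold (limma, adjusted p from 0.0238 to 0.0381). Vegfa, the angiogenic factor, lay at 114, 142 and 125 against 122, 113 and 110.3 TPM and Ddit4, an inhibitor of mTORC1, at 126, 149 and 128 against 128, 129.6 and 139 TPM, and neither passed (limma, adjusted p = 0.41 and 0.929). Angptl4 lay lower in every myCAF library, at 65.0, 56.6 and 55.0 against 69.2, 78.1 and 84.0 TPM, and did not pass (limma, adjusted p = 0.0551). Fits that left out myCAF replicates 1, 2 and 3 called 1, 15 and 2 members higher, and those that left out qPSC replicates 1, 2 and 3 called 0, 0 and 4, with 15 to 21 at an unadjusted p under 0.05 in each of these 6 limma fits. Selenbp1 was the 1 member called without myCAF replicate 1, and Selenbp1 and Ero1l were the 2 called without myCAF replicate 3. Hilpda, a lipid droplet gene, was called lower without myCAF replicate 2.

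In glycolysis 21 of 22 tested genes had a positive fold change. Among them 4 were called higher and 1 gene of the list was called lower, where 1.36% and 1.93% of all tested genes were. Before adjustment, at p under 0.05 with limma, these were 17 and 1, and limma-voom called 5 and 1. The median log2 fold change was 0.22. Pfkp, a phosphofructokinase, lay at 40.1, 46.1 and 45.3 TPM in the myCAF libraries and at 28.8, 24.3 and 30.3 TPM in the qPSC libraries, 1.56-fold higher (limma, adjusted p = 0.019). Pgk1, which encodes phosphoglycerate kinase, lay at 3561, 3616 and 3897 TPM in the myCAF libraries and at 2649, 2225 and 2938 TPM in the qPSC libraries, 1.43-fold higher (limma, adjusted p = 0.0331). Pgm1 and Tpi1 rose 1.39- and 1.33-fold (limma, adjusted p = 0.0307 and 0.045), and Slc16a1, a lactate transporter, fell 1.16-fold (adjusted p = 0.0379). The glucose transporter Slc2a1, at 266, 273 and 303 against 226, 191 and 236 TPM, and Ldha, at 2384, 2509.6 and 2514 against 2039, 1789 and 2269 TPM, did not pass (limma, adjusted p = 0.0565 and 0.0999). Leaving out myCAF replicates 1, 2 and 3 in turn gave 1, 8 and 0 members called higher, and leaving out qPSC replicates 1, 2 and 3 gave 0, 0 and 3, with 14 to 18 at an unadjusted p under 0.05 in each of these 6 limma fits. The lower call of Slc16a1 held without myCAF replicate 2 and without myCAF replicate 3 and in none of the other 4.

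In both lists qPSC replicate 2 was the lowest library, with a summed level, over all listed genes, of 2174 TPM for the HIF targets and 14127 TPM for glycolysis, against 2463 and 2728 TPM and 15834 and 17125 TPM in the other qPSC libraries. The core of the hypoxia response element, ACGTG on either strand, was found in 29.8% of the promoter windows of tested genes and in all 4 of the called HIF targets that have a window, where 16 of 22 tested HIF targets held it. In glycolysis it was in 3 of 5 called genes, Pgk1, Pgm1 and Slc16a1, of which Slc16a1 was called lower, and in 13 of 22 tested ones. It was also in 38.8% of those of all genes called higher and in 15.4% of those called lower. Windows around the core in Bnip3, Mxi1 and Pgk1, with the match in capitals, are given from RefSeq (GRCm38.p6, 5′ to 3′ along the gene).
Bnip3, chr7:138909599-138909623, minus strand: cacgcgccgcACGTGccacacgctc
Mxi1, chr19:53329337-53329361, plus strand: tcggcacccgACGTGcactggcggg
Pgk1, chrX:106186940-106186964, plus strand: gtcgtgcaggACGTGacaaatggaa
Of the called genes of the HIF list with a match Selenbp1 had the smallest p. Its promoter lies at chr3:94932833-94933132 (GRCm38.p6, plus strand), with the match in capitals.
Selenbp1 promoter: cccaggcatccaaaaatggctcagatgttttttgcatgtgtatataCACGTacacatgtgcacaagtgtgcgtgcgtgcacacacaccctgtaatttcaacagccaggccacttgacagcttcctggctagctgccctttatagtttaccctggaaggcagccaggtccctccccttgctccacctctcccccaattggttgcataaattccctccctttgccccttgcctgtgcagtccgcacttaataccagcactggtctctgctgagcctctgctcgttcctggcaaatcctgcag

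Several genes of amino acid synthesis under ATF4 rose, by small folds. Of 33 tested genes 10 were called higher and 0 lower (18 and 3 at an unadjusted p under 0.05 with limma, 12 and 0 called by limma-voom), with a median log2 fold change of 0.20. Gpt2, a mitochondrial alanine transaminase, lay at 58.8, 57.1 and 64.1 TPM in the myCAF libraries and at 45.9, 43.1 and 41.5 TPM in the qPSC libraries, 1.37-fold higher (limma, adjusted p = 0.0159). Psat1, an enzyme of serine synthesis, and the mitochondrial one-carbon enzymes Shmt2 and Mthfd2 rose 1.31-, 1.16- and 1.18-fold (limma, adjusted p = 0.0256, 0.0297 and 0.0292). Pycr1, which makes proline, lay at 11.6, 8.67 and 13.7 TPM in the myCAF libraries and at 6.31, 5.94 and 6.57 TPM in the qPSC libraries, 1.67-fold higher (limma, adjusted p = 0.0354), and Aldh18a1, the enzyme upstream of it, rose 1.29-fold (adjusted p = 0.0329). Aldh1l2, a mitochondrial folate enzyme outside the list, rose 1.90-fold, from 16.0, 15.3 and 15.8 TPM to 33.7, 22.1 and 39.0 TPM (limma, adjusted p = 0.0343). Its call held in 1 of the 6 fits that left out a library, the fit without myCAF replicate 2.

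Asns, which encodes asparagine synthetase, lay at 329, 377 and 383 TPM in the myCAF libraries and at 308, 265 and 267 TPM in the qPSC libraries, 1.30-fold higher (limma, adjusted p = 0.0445). Atf4 itself, at 888, 862 and 904 against 802, 788 and 739 TPM, did not pass (limma, adjusted p = 0.0622), nor did its stress targets Trib3, at 80.5, 97.6 and 102 against 83.1, 79.1 and 77.0 TPM, and Chac1, at 154, 171 and 141 against 172, 204 and 168 TPM (adjusted p = 0.225 and 0.249). The amino acid response element, searched as TGATGNAA, was in 2.61% of the windows of tested genes and in 2 of 9 called members with a window, shown here with the match in capitals. Over all tested members of the list it was in 9 of 26, a larger share (34.6%) than among the called ones (22.2%). Without myCAF replicates 1, 2 and 3 in turn, 3, 14 and 1 members were called higher, and without qPSC replicates 1, 2 and 3, 0, 0 and 0, with 14 to 21 at an unadjusted p under 0.05 in each of these 6 limma fits. Without myCAF replicate 3, 1 member was called lower.
Asns, chr6:7693215-7693242, minus strand: cccagccacaTGATGAAActtcccgcac
Pycr1, chr11:120643834-120643861, minus strand: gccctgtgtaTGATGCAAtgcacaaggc

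Of 20 tested genes of endoplasmic reticulum folding and the unfolded protein response 3 were called higher (15%) and 0 lower. Of all tested genes 1.36% were called higher. Counts in the list were 11 and 0 at an unadjusted p under 0.05 with limma, and 4 and 0 were called by limma-voom. Hspa5, the chaperone BiP, lay at 1781, 1800.5 and 1753 TPM in the myCAF libraries and at 1454, 1452 and 1388 TPM in the qPSC libraries, 1.24-fold higher (limma, adjusted p = 0.0146). Hsp90b1 and Pdia6, also chaperones of that compartment, rose 1.24- and 1.21-fold (limma, adjusted p = 0.0168 and 0.0336). Hyou1 and Calr did not pass, at adjusted p of 0.213 and 0.355. The members called higher numbered 1, 5 and 3 when myCAF replicates 1, 2 and 3 were left out in turn and 0, 0 and 0 when qPSC replicates 1, 2 and 3 were, with 7 to 11 at an unadjusted p under 0.05 in each of these 6 limma fits.

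**Figure D4:**
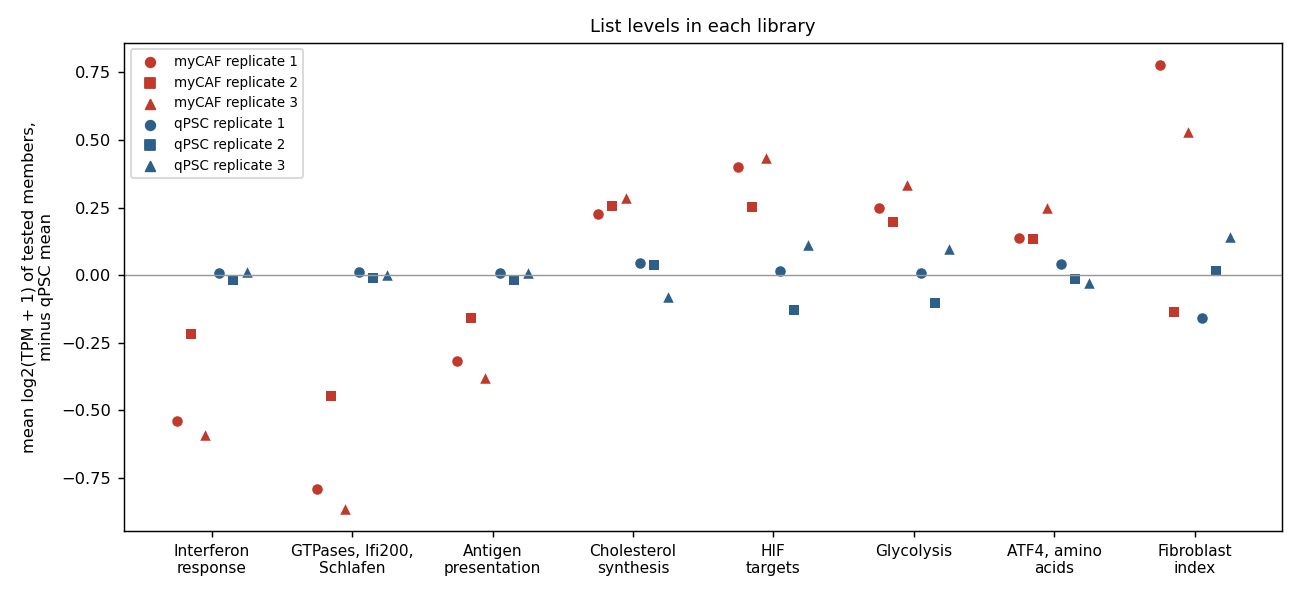
Mean log2(TPM + 1) of the tested members of 8 lists in each library, minus the mean of the 3 qPSC libraries (vertical axis); red symbols are myCAF and blue symbols qPSC libraries, with 1 symbol shape for each replicate number. myCAF replicate 2, the red square, is the myCAF library nearest to the controls in the 3 interferon-induced lists, HIF targets and glycolysis. In the ATF4 list it lies level with replicate 1. In cholesterol synthesis it lies between the other myCAF libraries, and in the fibroblast index within the controls.

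Krt19, a keratin of pancreatic duct cells, was among the genes with the largest rises. Krt19 lay at 36.9, 44.1 and 44.8 TPM in the myCAF libraries and at 18.8, 10.4 and 18.1 TPM in the qPSC libraries. Krt19 was 2.63-fold higher, a log2 fold change of 1.39 ± 0.20 (SE; limma, adjusted p = 0.019). Every myCAF library, replicate 2 included, lay above every control, and the call was lost in 1 of the 6 fits that left out a library, without myCAF replicate 3. Krt18, the partner of Krt8, lay at 939, 956 and 899.7 against 871, 806 and 885 TPM and did not pass (limma, adjusted p = 0.224). Of 22 listed keratin, junction and laminin genes 14 lay below 1 TPM in all 6 libraries. Of all tested genes 1.36% were called higher, and of the 8 tested in this list 2 were. That count was 1, 4 and 0 without myCAF replicates 1, 2 and 3 and 1 without each qPSC library in turn.

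Tuba1a, an α-tubulin isotype, lay at 1069.9, 1052 and 1116 TPM in the myCAF libraries and at 802, 712 and 742 TPM in the qPSC libraries. Tuba1a was 1.44-fold higher, a log2 fold change of 0.52 ± 0.05 (SE; limma, adjusted p = 0.00677). Tubb3, a β-tubulin, and Tpm4, an actin-binding tropomyosin, rose 1.32- and 1.17-fold (limma, adjusted p = 0.0156 and 0.0229). With Tuba1a they were the 3 calls among 28 tested tubulin and actin genes (10.7%, where 1.36% of all tested genes were called higher). Fits that left out myCAF replicates 1, 2 and 3 called 2, 4 and 2 members higher, and those that left out qPSC replicates 1, 2 and 3 called 1, 1 and 2, with 7 to 12 at an unadjusted p under 0.05 in each of these 6 limma fits. Pfn1, which encodes profilin, was called lower without myCAF replicate 2.

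The stellate cells had been primed with TGF-β1, and targets of TGF-β signalling in the sorted cells were compared for that reason. Of 36 tested ligands, receptors, SMADs and target genes 1 was called, where 3.29% of all tested genes were, and the median log2 fold change was 0.01. At an unadjusted p under 0.05 limma counted 0 higher and 2 lower, and limma-voom called 0 higher and 1 lower. The called gene was Tgfb1, the ligand gene itself, which lay at 72.6, 74.2 and 82.3 TPM in the myCAF libraries and at 97.1, 92.4 and 95.6 TPM in the qPSC libraries, 1.24-fold lower (limma, adjusted p = 0.0297). The receptor genes Tgfbr1 and Tgfbr2 did not pass (limma, adjusted p = 0.326 and 0.384).

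Among the immediate targets Smad7, the inhibitory SMAD, lay at 9.55, 6.54 and 9.20 TPM in the myCAF libraries and at 7.12, 8.12 and 7.30 TPM in the qPSC libraries. Skil, a repressor that TGF-β induces, lay at 20.9, 20.1 and 23.4 TPM in the myCAF libraries and at 21.2, 20.7 and 18.3 TPM in the qPSC libraries. The groups overlapped for both, and neither passed (limma, adjusted p = 0.659 and 0.591). Ligands, receptors and targets without a call ran from a log2 fold change of -0.30 for Id1 to 0.47 for Ltbp2. Ltbp2, which binds latent TGF-β, and Tgfbi, a matrix protein, lay highest in myCAF replicates 1 and 3 and within or below the controls in replicate 2, at 10.5, 4.10 and 6.96 and 55.4, 23.4 and 45.3 TPM. Leaving out myCAF replicates 1, 2 and 3 in turn gave 0, 1 and 1 members called lower, and leaving out qPSC replicates 1, 2 and 3 gave 0, 0 and 0, with 1 to 4 at an unadjusted p under 0.05 in each of these 6 limma fits. The last range counts lower members. Without myCAF replicate 2, 3 members were called higher, among them Tgfbi, and 10 were higher at an unadjusted p under 0.05, where the fit of 6 and each of the other 5 fits gave 0 of either.

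Some matrix and contractile genes known from fibroblasts passed the test. Postn, which encodes the matrix protein periostin, lay at 14.6, 4.64 and 10.8 TPM in the myCAF libraries and at 1.24, 1.40 and 2.38 TPM in the qPSC libraries. Postn was 3.85-fold higher, a log2 fold change of 1.94 ± 0.34 (SE; limma, adjusted p = 0.0297). myCAF replicate 2 lay lowest of its group and still above the controls. Acta2, the smooth muscle actin that marks myofibroblasts, lay at 4.96, 5.34 and 7.75 TPM in the myCAF libraries and at 2.34, 2.25 and 3.32 TPM in the qPSC libraries, 1.92-fold higher (limma, adjusted p = 0.0324), and here replicate 2 lay between the other myCAF libraries. Both calls were lost when any library other than myCAF replicate 2 was left out. Acta2 was the 1 call among 5 tested myofibroblast genes (20%), where 1.36% of all tested genes were called higher.

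Of 17 tested fibroblast markers 2 were called higher (11.8%, against the 1.36% of all tested genes), Postn and Sparc, and 0 lower (6 and 2 at an unadjusted p under 0.05). Sparc, a matrix protein at 236, 239.5 and 233 against 198, 196 and 201 TPM, rose 1.19-fold (limma, adjusted p = 0.02). Without myCAF replicates 1, 2 and 3 in turn, 0, 10 and 1 members were called higher, and without qPSC replicates 1, 2 and 3, 0, 0 and 0, with 5 to 13 at an unadjusted p under 0.05 in each of these 6 limma fits. Without myCAF replicate 2 Col1a1 and Thy1 passed, with log2 fold changes of 1.36 and 0.95 (limma, adjusted p = 0.000263 and 0.0201). Several markers of contractile fibroblasts were nearly absent: Tagln reached at most 0.738 TPM, Cthrc1 was listed at 0 in all 6 libraries, and 9 of 14 listed myofibroblast genes lay below 1 TPM throughout. Fn1, which encodes fibronectin, lay lower in every myCAF library, at 1228, 1358 and 1369.6 against 1481, 1521 and 1524 TPM, without passing (limma, adjusted p = 0.0811).

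In the lists that follow, 0% to 8.33% of the tested genes passed, where 3.29% of all tested genes did. None of 34 tested cell cycle genes did (6 higher and 2 lower before adjustment, at p under 0.05, 0 and 0 called by limma-voom), with a median log2 fold change of 0.06. None of 28 ribosomal protein genes passed in limma either (1 and 2 at an unadjusted p under 0.05, 0 and 1 by limma-voom). Of 24 tested NRF2 and glutathione genes 2 were called, both lower: Gpx1, a glutathione peroxidase, 1.27-fold, and Fth1, the ferritin heavy chain, at 11056, 12041 and 12669 against 16232, 16001 and 15344 TPM, 1.33-fold (limma, adjusted p = 0.014 and 0.0202). Of 31 tested MAPK feedback and immediate early genes Junb, an AP-1 subunit, was called, at 263, 220.2 and 247 against 353, 363 and 323 TPM, 1.42-fold lower (limma, adjusted p = 0.0193). Of 17 matrix protease and inhibitor genes Mmp9, a gelatinase, was called, at 7.35, 7.27 and 6.80 against 10.4, 11.5 and 11.1 TPM, 1.47-fold lower (limma, adjusted p = 0.014). Cox5b, 1 of 27 respiratory chain genes, and Bok, 1 of 21 apoptosis genes, fell 1.40- and 1.18-fold (limma, adjusted p = 0.0396 and 0.0376). Without myCAF replicate 2 the calls were 2 higher and 2 lower in the MAPK list and in the protease list, 1 and 2 in apoptosis, 1 and 0 in the cell cycle and 0 and 1 among ribosomal proteins. Over the other 5 fits that left out a library these 5 lists had 0 higher and 0 or 1 lower calls each. NRF2 genes had 0 to 2 and respiratory chain genes 0 to 2 lower calls, and none higher, over all 6.

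Some of the 12 genes per direction with the largest changes among named genes at 5 TPM or more belonged to none of the lists. Outside the naming rule, called genes reached 16.8-fold higher and 4.09-fold lower. Mgarp, a mitochondrial protein, Ndrg2, a relative of Ndrg1, and Rdm1, a DNA repair gene, rose 1.86-, 1.80- and 1.62-fold (limma, adjusted p = 0.0417, 0.0343 and 0.0417). Hist1h2ap, a histone H2A gene, lay at 549.9, 425 and 959 TPM in the myCAF libraries and at 1771, 1472 and 2057 TPM in the qPSC libraries, 2.88-fold lower (limma, adjusted p = 0.0297). Of the 6 fits that left out a library, 1 kept the call of Mgarp and of Ndrg2, and 2 kept that of Rdm1 and of Hist1h2ap. The genes called lower were shorter and richer in GC than the rest, with a median exon length of 2826 bases and a GC content of 54.7%, where all tested genes had 4338 bases and 49.7% and the genes called higher 3567 bases and 49.7%. With the trends of length and GC removed, an alternative chosen after seeing the data, 141 genes were called higher and 162 lower.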

How the data were processed

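Messenger RNA of sorted tumour cells was measured in 9 libraries (TruSeq Stranded mRNA, 50-base single reads, per the labels' protocols), of which the 3 myCAF and 3 qPSC libraries were analysed. The deposited table holds the authors' TPM values for 41457 gene symbols, and each library sums to 1000000. The submitters' processing notes name Salmon, R 4.0.1 and DESeq2. Build, annotation and strand setting were not given in the sources used here. Overlapping antisense genes and near-copies are therefore uncertain.

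TPM holds no depth of its own. With exon lengths of the GENCODE M21 annotation (GRCm38), 97.8% to 98.1% of non-zero values below 200 implied reads lay within 0.05 of a whole read. Values above that limit were not checked in this way. The implied reads were the input of limma-voom, 1 of the alternatives. Genes with TPM of 1 or more in 3 or more of the 6 libraries were kept. limma 3.58.1 (R 4.3.3, with a mean-variance trend) was fitted to log2(TPM + 1) of the 6 libraries alone, with Benjamini-Hochberg adjustment over all 11620 genes. A fold change on this scale understates the change of low genes. limma was used in place of a count test because the values are TPM. Fold changes are geometric on that scale, and errors are standard errors of the fit with n = 3 per group. The fit was also run on simulated data in which both groups had the median spread of the qPSC libraries. The myCAF libraries scattered more than that, so the run does not show how reliable the calls are. Tables and figures were made with Python 3.11.15, pandas 2.3.3 and matplotlib 3.10.9.

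The members and gene lists were chosen with earlier results of these data known. Named genes are, per direction, the 12 called genes with the largest change, non-overlapping groups and 5 TPM or more on average in the group where they are higher, up to 4 called members per list and direction by smallest p, and fixed marker genes. Other list members were named for their role after their values were seen. Some genes are not reported here. Alternatives were other libraries in the fit, a replicate block, centring, pseudocounts, filters, variance models, a fold threshold, voom and leaving out each library.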

Additional observations from a re-analysis of the deposited data

How the results depend on the processing

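Between 130 and 196 genes were called higher and between 162 and 286 lower with 8 libraries (without iCAF replicate 3), median centring, pseudocounts of 0.1 and 0.5, a filter of 5 TPM, robust moderation, limma-voom, or the length and GC trend removed. The calls fell to 0 and 0 with all 9 libraries (unadjusted 307 and 438), 3 and 5 without a filter on low values, 6 and 20 without the mean-variance trend, and 0 and 10 against a fold threshold of 1.2 (unadjusted 109 and 150). Leaving out 1 library gave 7 to 506 higher and 15 to 426 lower. The cause of these shifts was not tested. The fibroblast index difference ran from 0.196 to 0.653. Over the genes of the naming rule that are reported, 929 values kept their direction and their side of the threshold, 549 kept the direction and lost the call, and 2 gained it (Col1a1 and Thy1). The 3 libraries per group limit the precision.

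Deviations of libraries with the same replicate number from their group means had correlations of -0.33, 0.0068 and 0.044, and the numbers were not taken as pairs. With 3 libraries per group such correlations cannot show whether equal numbers shared a day or culture. The replicate block gave 79 genes higher and 134 lower, where the fit without it gave 158 and 224.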

Other observations

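Some genes outside the lists were looked at after their values were seen. Il13ra2, a decoy receptor for interleukin 13, had the lowest adjusted p of all genes. It lay at 36.2, 31.6 and 33.9 TPM in the myCAF libraries and at 62.2, 64.8 and 63.7 TPM in the qPSC libraries, 1.85-fold lower (limma, adjusted p = 0.00301), and the replicates of each group lay close together. Inhbb, which encodes a subunit of activin B, a ligand of the TGF-β family, lay at 43.8, 48.3 and 44.4 TPM in the myCAF libraries and at 65.1, 71.0 and 71.5 TPM in the qPSC libraries, 1.51-fold lower (limma, adjusted p = 0.00528). Pdx1, a transcription factor of the pancreas, lay at 16.8, 18.5 and 17.3 TPM in the myCAF libraries and at 23.7, 24 and 22.4 TPM in the qPSC libraries, 1.32-fold lower (limma, adjusted p = 0.0202). Ifnar2, a chain of the type I interferon receptor, was 1.23-fold lower, at 36.1, 36.0 and 38.4 against 46.9, 44.7 and 45.1 TPM (limma, adjusted p = 0.0229). Sod3, an extracellular superoxide dismutase, was 1.42-fold lower, at 109, 115 and 109 against 162, 156 and 154 TPM (limma, adjusted p = 0.0041). Ncam1, an adhesion molecule, rose 2.13-fold (limma, adjusted p = 0.0403), with myCAF replicate 2 lowest of its group, as in the fibroblast index.

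Replication-dependent histone genes, which supply histones during DNA replication, were grouped after the fall of Hist1h2ap was seen. Of 44 tested genes 5 were called lower, where 1.93% of all tested genes were, and 0 higher, with a median log2 fold change of -0.20. Their summed level was 993, 774 and 1381 TPM in the myCAF libraries and 2231, 1946 and 2564 TPM in the qPSC libraries, most of it from Hist1h2ap. Of 34 tested cell cycle genes 0 were called. Whether the messenger RNA selection of the library kit entered the histone values was not tested. Of 20 cytosolic aminoacyl-tRNA synthetases, which load tRNAs with amino acids, 4 were called higher (Lars, Sars, Cars and Tars) and 0 lower. Of all tested genes 1.36% were called higher. The folds of these 4 were 1.19, 1.15, 1.17 and 1.16, and the median log2 fold change of the 20 was 0.14.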
